A study of Isoetes sinensis with 3 samples.

Results

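Convergent genes are neighbours on opposite strands whose 3′ ends point at each other. The *Isoetes sinensis* pairs described here were chosen by the distance between those ends in the deposited annotation. On the 22 pseudochromosomes, genes were ordered by start, and a pair was taken where the left gene lay on the plus strand, the right gene on the minus strand, neither contained the other, and right start minus left end was 200 bp or less. This gave 380 pairs with 760 genes, out of 12908 convergent neighbours and 54063 genes on the pseudochromosomes. Of the 380 pairs, 139 shared at least 1 base and are called overlapping, and 241 shared none and are called adjoining. A further 74 convergent neighbours were left out because 1 gene contained the other.

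*I. sinensis* is a tetraploid lycophyte, a spore-bearing vascular plant. The series holds 1 RNA library each of root, shoot and 1 more tissue, which the labels name sporophyte and the methods name sporangia. The annotation belongs to no single library, so no tissue is compared, and read depth and expression were not analysed here. Genes are known by identifier alone, without symbols or functions.

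In plants, transcription runs past the stop codon into the 3′ untranslated region (3′ UTR), where the transcript is cut and polyadenylated. When convergent genes run into each other, their transcripts share complementary sequence and are called cis-natural antisense transcripts. In *Arabidopsis thaliana* such a pair is known to give small interfering RNAs under salt stress. The coding sequence (CDS) is the translated part of the exons, and the 5′ UTR lies upstream of it. Overlaps in an annotation are overlaps of gene models. Whether both transcripts are made in the same cells was not tested.

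The 380 pairs made up 2.94% of convergent neighbours, and the 139 overlapping pairs made up 1.08%. Divergent neighbours, which meet at their 5′ ends, came within 200 bp in 265 of 12908 cases (2.05%) and overlapped in 76 (0.589%). Genes in tandem on the same strand came within 200 bp in 1929 of 28042 cases (6.88%), yet only 8 of them (0.0285%) overlapped. The shared bases thus lay mostly between genes on opposite strands. These shares are given without a test, since the distance chose the pairs.

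Counts of convergent pairs were similar on both sides of the limit of 200 bp. Convergent pairs numbered 65 at 1 to 50 bp, 58 at 51 to 100 bp, 60 at 101 to 150 bp and 58 at 151 to 200 bp. In the next bins of 50 bp beyond the limit, 47 and then 43 pairs followed. Tandem neighbours thinned out over the same range, from 754 at 1 to 50 bp to 269 at 151 to 200 bp. The median distance of all convergent neighbours was 20172 bp, so the pairs described here are the close end of a wide distribution. In the adjoining pairs the median stretch between the genes was 97 bp (quartiles 45 and 147 bp).

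**Figure D1:**
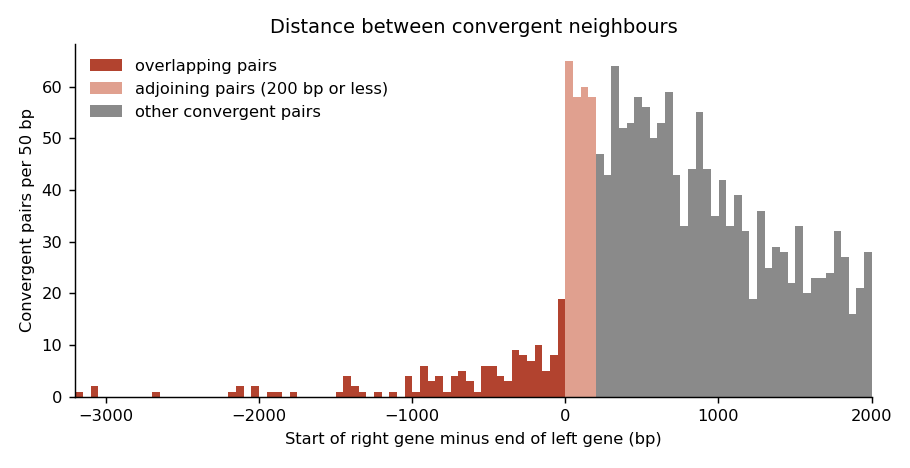
Number of convergent neighbour pairs per 50 bp (vertical axis) against right start minus left end in bp (horizontal axis, negative where genes overlap), for overlapping, adjoining and other pairs. Adjoining pairs fill their 4 bins evenly with 58 to 65 pairs, other pairs follow without a step at 200 bp, and overlaps tail off to the left as far as 3153 bp.

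The pairs at either side of the limit held genes of equal CDS length. No pair had a distance of exactly 200 bp. The farthest pair inside the limit, evm.TU.Chr9.1806 (chromosome 9, 34307229 to 34308830) and evm.TU.Chr9.1807 (34309028 to 34311612), had a distance of 198 bp. The nearest pair outside, evm.TU.Chr10.1421 (chromosome 10, 27686618 to 27689188) and evm.TU.Chr10.1422 (27689392 to 27690996), had a distance of 204 bp. The same CDS lengths, 615 and 1182 bp, occur in both pairs, with left and right exchanged. The genes evm.TU.Chr9.1807 and evm.TU.Chr10.1421 were matched as copies on partner chromosomes, as described below. There evm.TU.Chr9.1807 counts among the 43 genes whose copy lay farther apart, at 198 bp against 204 bp.

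Every chromosome carried such pairs. Counts ran from 10 on chromosome 20 to 24 on chromosomes 1 and 3, with a mean of 17.3 (SD 4.24 over 22 chromosomes). As a share of convergent neighbours they ran from 1.75% on chromosome 5 to 4.23% on chromosome 3 (SD 0.703 percentage points). The share of pairs that overlapped was less even, from 1 of 12 on chromosome 10 to 8 of 11 on chromosome 5, with small counts behind each value. No other gene lay across the meeting point of any pair, and 7 pairs were followed directly by another pair of the set.

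The 139 overlaps ran from 2 to 3153 bp, with a median of 402 bp and quartiles of 163.5 and 863.5 bp. Very short overlaps were few, with 15 of at most 20 bp. Overlaps over 1 kb were found in 26 pairs. The overlaps summed to 86511 bp, of which 65997 bp (76.3%) was exon on exon and so would be complementary in the spliced transcripts. In 58 pairs the whole overlap was exonic.

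The commonest overlap laid the 3′ UTR of a gene over the coding exons of its neighbour. This occurred in 108 of 139 overlapping pairs (77.7%), and in 74 of them it was the only kind of exon contact. These 74 pairs overlapped by 3 to 2107 bp (median 330 bp). In 73 of the 74 the overlapped gene had no annotated 3′ UTR of its own, and in 49 its model named Evidence Modeler as source, a label carried only by models without UTRs. The class itself nearly fixes the 73. An overlapped gene with a 3′ UTR would mostly bring 3′ UTR on 3′ UTR, and so fall in another class.

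Contacts of 3′ UTR with 3′ UTR alone were shorter. They occurred in 26 pairs, with a median of 39.5 bp and a highest value of 795 bp. A further 28 pairs had 3′ UTR on 3′ UTR together with 3′ UTR on CDS, with a median overlap of 918.5 bp. In 7 more pairs, without CDS on CDS, an exon lay on a 5′ UTR, with overlaps of 1103 to 3153 bp. In 2 pairs exons lay only over introns of the other gene. Overlap of CDS with CDS was limited to 2 pairs.

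**Figure D2:**
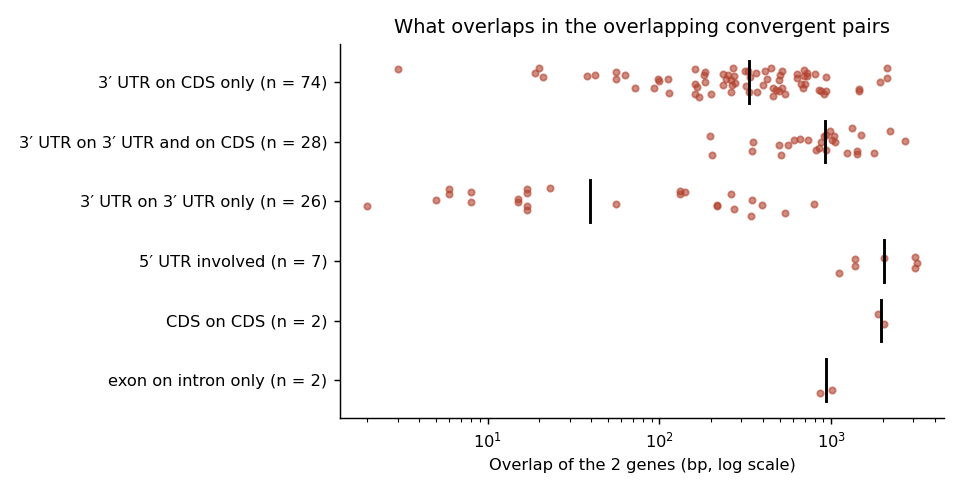
Overlap length in bp (horizontal, log scale) of each overlapping pair (point), by what overlaps (rows), with the median as a bar. Overlaps of 3′ UTR on 3′ UTR alone sit lowest (median 39.5 bp), those with 3′ UTR on CDS alone have a median of 330 bp, and those that reach a 5′ UTR all exceed 1 kb.

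Both CDS-on-CDS pairs had an unusual shape, with the 5′ part of the left gene lying over the right gene. On chromosome 11, evm.TU.Chr11.3062 (57066752 to 57085272) and evm.TU.Chr11.3061 (57083236 to 57085283) overlapped by 2037 bp. The left gene has no 3′ UTR, and 297 of its 312 coding bp lay on the CDS of the right gene. Its 5′ UTR of 1407 bp laid 907 bp on that CDS too. On chromosome 6, evm.TU.Chr6.1198 (23638906 to 23640846) and evm.TU.Chr6.1197 (23638974 to 23640939) overlapped by 1873 bp, with 243 bp of CDS on CDS. In both pairs the left gene has a single CDS exon behind a 5′ UTR of over 1 kb, and most of its exons face the coding exons of its partner.

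In each of the 3 longest overlaps, the right gene had a 3′ UTR longer than the whole CDS of its neighbour. On chromosome 3, evm.TU.Chr3.4202 (79340753 to 79343907) and evm.TU.Chr3.4203 (79340755 to 79344435) shared 3153 bp, so that the left gene falls 2 bp short of lying inside the right one. Its CDS of 258 bp lay wholly under the 3′ UTR of 1829 bp of its partner, and its own 3′ UTR measured 2266 bp. On chromosome 14, evm.TU.Chr14.2056 (39210026 to 39213155) and evm.TU.Chr14.2057 (39210094 to 39213704) overlapped by 3062 bp, of which 2678 bp was exonic. On chromosome 1, evm.TU.Chr1.317 (5313058 to 5316119) and evm.TU.Chr1.318 (5313069 to 5318411) overlapped by 3051 bp and had the most exon-on-exon overlap, 2892 bp. The 3′ UTR of evm.TU.Chr1.318 measured 3110 bp, against 1298 bp for its partner. The same 3 pairs led by genomic and by exonic overlap.

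Across all overlapping pairs, 120 genes had part of their CDS under the 3′ UTR of the partner. The median stretch was 227 bp, or 21.7% of the CDS, and 28 genes were covered over more than 50% of their CDS. In 6 genes the whole CDS lay under the partner's 3′ UTR, and these were singled out after their values were seen. They include evm.TU.Chr1.317, evm.TU.Chr3.4202 and evm.TU.Chr14.2056 above. The 3 others are evm.TU.Chr2.267 (chromosome 2, 5086848 to 5088878), evm.TU.Chr11.2674 (chromosome 11, 49810753 to 49812472) and evm.TU.Chr12.2577 (chromosome 12, 46825158 to 46826883). The CDS of evm.TU.Chr2.267 measured 1470 bp, as did that of evm.TU.Chr1.317, and their partners' 3′ UTRs measured 3133 and 3110 bp. The CDS of evm.TU.Chr11.2674 and evm.TU.Chr12.2577 measured 675 and 672 bp, under 3′ UTRs of 928 and 923 bp. Near-equal models thus sat on chromosomes 1 and 2 and on chromosomes 11 and 12.

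Counts of these contacts and of 3′ UTRs were higher for the left, plus-strand gene. The 3′ UTR of the left gene alone lay on the CDS of the right gene in 59 pairs, the reverse held in 37, and both held in 12. Left genes had an annotated 3′ UTR in 280 of 380 cases (73.7%) and right genes in 257 (67.6%). Their median 3′ UTRs were 483.5 and 401 bp, and these medians varied widely over chromosomes (SD 159 and 103 bp). In the other convergent pairs the strands were near equal, with 3′ UTRs in 53.5% of left and 53.7% of right genes and medians of 333 and 334 bp. The difference between strands was not tested.

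The 3′ UTRs of the set were long, as its rule favours, since a longer 3′ UTR brings a gene end closer to its neighbour. A 3′ UTR was annotated in 537 of 760 genes (70.7%), against 53.6% of the 25056 genes of other convergent pairs. Its median length was 445 bp (quartiles 269 and 737 bp), against 333 bp (quartiles 199 and 532 bp) in the other pairs. Genes of overlapping pairs had a median of 675 bp, and 55 of their 202 3′ UTRs (27.2%) exceeded 1 kb. Genes of adjoining pairs had a median of 363 bp, close to that of the other convergent pairs, and 20 of 335 (5.97%) exceeded 1 kb. An intron lay in 11.9% of the 3′ UTRs of the set and in 11.7% of those of the other pairs.

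The longest 3′ UTR of the set belonged to evm.TU.Chr21.3539 (chromosome 21, 68029493 to 68034344). It measured 3256 bp without an intron, beside a CDS of 1212 bp. It ran over the neighbouring gene evm.TU.Chr21.3540 (68032411 to 68034975) and laid 1723 bp on its CDS, which measures 2115 bp in 7 exons in a model with no UTR.

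**Figure D3:**
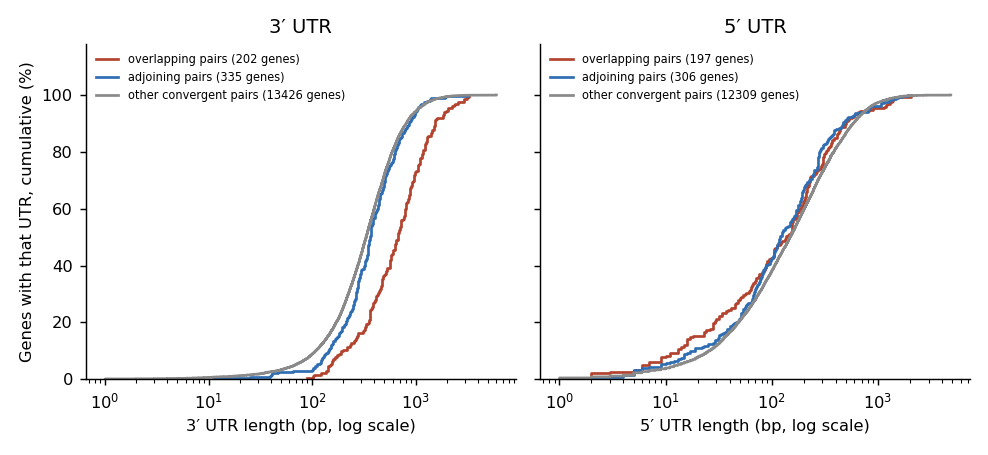
Cumulative share (vertical axis, %) of genes with a 3′ UTR (left panel) or a 5′ UTR (right panel) up to a given UTR length (horizontal axis, bp, log scale), for overlapping, adjoining and other convergent pairs. The 3′ UTR curve of overlapping pairs is shifted to longer values (median 675 bp, against 333 bp in the other pairs), and the 5′ UTR curves lie close together.

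Pairs fell into groups by how many of their genes had a 3′ UTR. Both genes had one in 198 pairs (52.1%, against 30.0% of the other convergent pairs), 1 gene had one in 141, and neither in 41. Of the pairs with 3′ UTRs on both genes, 63 overlapped (31.8%). Of those with 1, 76 overlapped (53.9%), and of those with none, 0 of 41 did. Each of these 139 overlapping pairs thus had at least 1 annotated 3′ UTR, and overlaps of other orientations were not examined for it. Read against all convergent neighbours, 5.0% of pairs with both 3′ UTRs fell within 200 bp, 2.33% of those with 1 and 1.41% of those with none. The sources used here do not state how UTR ends were set. The labels describe strand-specific libraries, and whether strand was used to place transcript ends on genes was not tested.

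Measured between the stop-codon ends of the CDS, the same genes lay farther apart. The median distance from CDS to CDS was 640 bp over the 380 pairs (quartiles 384.75 and 959 bp), against 21655.5 bp in the other convergent pairs. Overlapping pairs had a median of 590 bp and adjoining pairs 671 bp, so their coding parts were about equally spaced. Only 61 pairs had CDS ends within 200 bp, and in 3 the spans of the CDS crossed. The exception at the far end was evm.TU.Chr22.648 and evm.TU.Chr22.650 on chromosome 22, chosen after its values were seen. Their CDS lay 29562 bp apart, while the genes overlapped by 1103 bp with 19 bp of exon on exon.

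A single pair abutted with no base between. This was evm.TU.Chr15.1296 (chromosome 15, 24896083 to 24897211), with 3 CDS exons and no 3′ UTR, and evm.TU.Chr15.1297 (24897212 to 24906683), with 20 CDS exons and a 3′ UTR of 667 bp. The 3′ UTR of evm.TU.Chr15.1297 thus ended at the base next to the CDS of its neighbour.

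**Figure D4:**
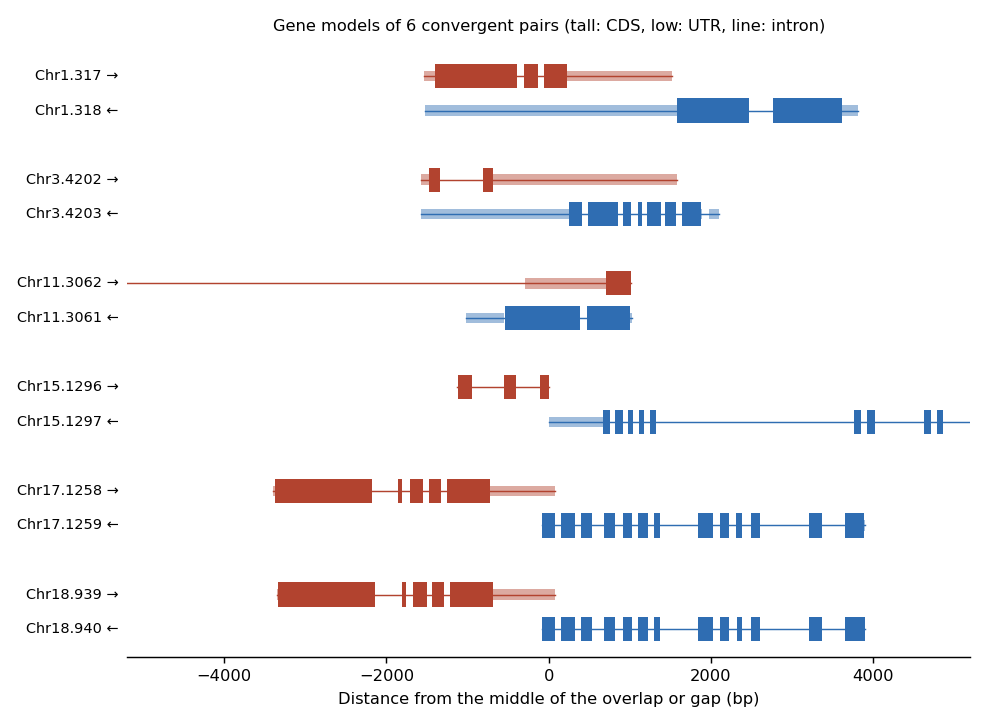
Gene models of 6 convergent pairs drawn to scale, with distance from the middle of the overlap or gap in bp on the horizontal axis, the plus-strand gene above the minus-strand gene, tall boxes for CDS, low boxes for UTR and lines for introns. The CDS of evm.TU.Chr1.317 lies whole under the low box of its partner, evm.TU.Chr15.1296 and evm.TU.Chr15.1297 touch without overlap, and the pairs on chromosomes 17 and 18 repeat the same overlap of 161 bp (evm.TU.Chr11.3062 and evm.TU.Chr15.1297 run beyond the edges).

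The CDS, the 5′ UTR and the distance on the 5′ side, which the rule did not read, were tested against the other convergent pairs. The difference was taken within each of 11 pairs of best-matching chromosomes (exact sign-flip permutation test, two-sided). Benjamini-Hochberg adjustment was over 5 tests. The fifth, on gene copies, is described without p because it reads the distance that chose the pairs. Counting it lowered the adjusted p of CDS length, CDS exons and 5′-side distance below what the other tests alone would give. Their unadjusted p was 0.00586, 0.00684 and 0.000977 (permutation test). Genes of the set had longer coding sequences and more coding exons. Their CDS had a median of 1090.5 bp, against 891 bp in the other pairs. The mean difference over chromosome pairs was 188 bp (SD 158, higher in 10 of 11, permutation test, adjusted p = 0.00854). They had 5.13 CDS exons on average, against 4.71 (mean difference 0.418, SD 0.383, higher in 9 of 11, permutation test, adjusted p = 0.00854). Among genes with UTRs on both sides of the CDS, both differences missed the threshold. There the mean differences were 41.7 bp (permutation test, adjusted p = 0.482) and 0.317 CDS exons (permutation test, adjusted p = 0.273). Adjustment among these genes left out the comparison of copies. UTRs on both sides were annotated in 61.7% of genes of the set, against 45.7% in the other pairs, and their part in the differences was not tested.

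On the side away from the partner, genes of the set had more room. The median distance from the 5′ end to the next gene was 27843 bp, against 23011 bp in the other pairs. The mean difference was 4822 bp (SD 2532, higher in 11 of 11 chromosome pairs, permutation test, adjusted p = 0.00244). It was 1734 bp among genes with UTRs on both sides (permutation test, adjusted p = 0.319) and 2638 bp when overlapping pairs alone were set against the rest (permutation test, adjusted p = 0.193).

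The difference in 5′ UTR length missed the threshold. Its median was 125 bp in 503 genes of the set, against 149 bp in 12309 genes of the other pairs. The mean difference over chromosome pairs was -9.36 bp (SD 29.4, lower in 7 of 11, permutation test, adjusted p = 0.315).

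Where a gene of the set had a matched copy on the partner chromosome, the copy mostly lay in such a pair too. The 22 pseudochromosomes of this tetraploid fall into 11 pairs by the gene copies they share. Copies were matched by the lengths of their internal CDS exons alone, without reading distance or UTRs in the matching. Of 188 genes of the set with a matched copy on the partner chromosome, 173 had a copy that also faced a convergent neighbour. In 130 of these (75.1%) the copy's own pair lay within 200 bp, against 1.58% of the copies of 2719 matched genes from other convergent pairs. These shares are a description, since the distance at a copy is the measure that chose the pairs, all 130 copies belong to the set themselves, and the 1.58% are the 43 unlike couples counted from the other side. Where both copies belong to the set, each counts once as gene and once as copy. With members from odd-numbered chromosomes only, the shares were 69.1% of 94 genes and 1.04% of 1352 genes, and with members from even-numbered chromosomes only, 82.3% of 79 and 2.12% of 1367, again without a test. Both parts of that split read the same couples from opposite sides, so neither is a check on the other. It was chosen after seeing the data. The same proteins and transcripts may have been aligned to both copies, so the copies may not have been annotated independently. The part of this in the shared ends was not tested.

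Taken as pairs, 114 of the 380 were linked in 57 couples, 1 pair on each partner chromosome. A match of 1 gene was enough for a link, and in only 8 couples were both facing genes matched. In 24 of the 57 the distance was the same to the base, in 44 it differed by at most 50 bp, and in 8 it differed by more than 200 bp. Both pairs overlapped in 27 couples, neither in 23, and only 1 of them in 7. The distance between the CDS agreed within 50 bp in 49 couples. The matched gene lay on the same strand in both chromosomes in 44 couples and on opposite strands in 13.

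**Figure D5:**
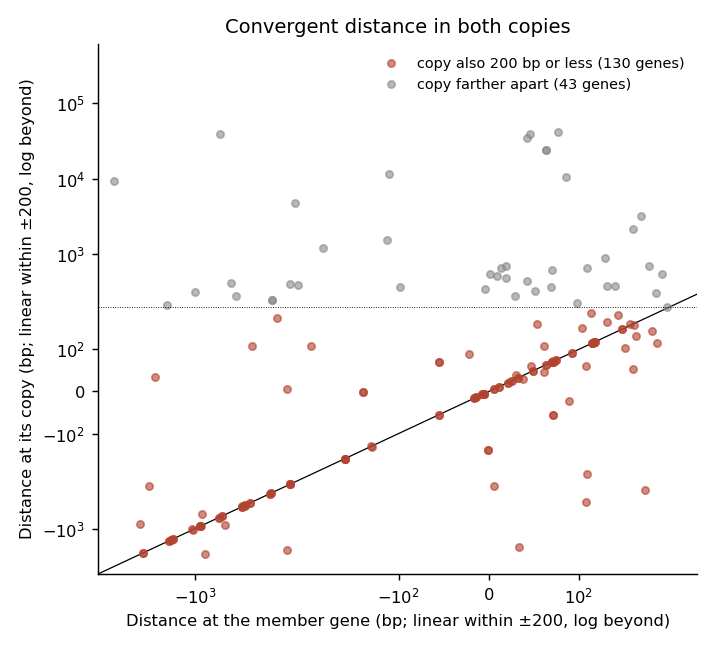
Distance (right start minus left end) at a gene of the set (horizontal axis, bp) against the distance at its matched copy on the partner chromosome (vertical axis, bp), both axes linear within 200 bp of 0 and logarithmic beyond. The 130 genes whose copy is also within 200 bp lie mostly along the diagonal of equal distance, and the 43 others lie above the dotted line at 200 bp.

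Some large overlaps were repeated to the base and others were not, as shown by 6 couples singled out after their values were seen. On chromosome 7, evm.TU.Chr7.804 (15701406 to 15706136) and evm.TU.Chr7.805 (15704030 to 15708757) overlapped by 2107 bp. On chromosome 8, evm.TU.Chr8.599 (10567396 to 10572126) and evm.TU.Chr8.600 (10570020 to 10574769) also overlapped by 2107 bp. In each the left gene had a CDS of 843 bp and a 3′ UTR of 2955 bp, of which 1824 bp lay on the 3552-bp CDS of the right gene. An overlap of 1446 bp recurred between evm.TU.Chr3.2194 and evm.TU.Chr3.2195 and between evm.TU.Chr4.2227 and evm.TU.Chr4.2228. There the 3′ UTR on CDS differed, with 1263 bp on chromosome 3 and 1446 bp on chromosome 4. The overlapped models had 2 and 1 CDS exons. An overlap of 1416 bp recurred between evm.TU.Chr13.3152 and evm.TU.Chr13.3153 and between evm.TU.Chr14.3181 and evm.TU.Chr14.3182, with 501 bp of 3′ UTR on 3′ UTR in both. The pair of evm.TU.Chr21.3539, which holds the longest 3′ UTR, had a distance of -1933 bp, against -272 bp for the pair of evm.TU.Chr22.3858. That couple was linked through evm.TU.Chr21.3540 and evm.TU.Chr22.3859. The pair of evm.TU.Chr15.4591 had -2193 bp and that of evm.TU.Chr16.4349 had -875 bp, with 479 bp between the CDS in both. The pair of evm.TU.Chr8.3261 had -1761 bp, and that of evm.TU.Chr7.3548 did not overlap, with 34 bp.

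In 8 couples both genes were matched one to one, and 4 of these had equal distances. The set with most coding exons was evm.TU.Chr3.3447 (chromosome 3, 64352488 to 64357361) with evm.TU.Chr3.3448 (64357356 to 64359839), and evm.TU.Chr4.3380 (chromosome 4, 60428967 to 60433842) with evm.TU.Chr4.3381 (60433837 to 60436343). Each pair has 14 and 7 CDS exons and shares 6 bp of 3′ UTR on 3′ UTR. On chromosomes 17 and 18, evm.TU.Chr17.1258 (22954233 to 22957711) with evm.TU.Chr17.1259 (22957551 to 22961530), and evm.TU.Chr18.939 (17454980 to 17458416) with evm.TU.Chr18.940 (17458256 to 17462239), overlapped by 161 bp each. There the left gene's 3′ UTR laid 159 bp on the CDS of a neighbour with 13 CDS exons and no 3′ UTR. The third set differed between the chromosomes. On chromosome 11, evm.TU.Chr11.717 (13184429 to 13187032) and evm.TU.Chr11.718 (13186977 to 13189782) overlapped by 56 bp. On chromosome 12, evm.TU.Chr12.723 (11954245 to 11956892) and evm.TU.Chr12.724 (11956963 to 11959774) had a distance of 71 bp, with left 3′ UTRs of 360 bp on chromosome 11 and 412 bp on chromosome 12.

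In the 43 matched genes whose copies faced a farther neighbour, the median distance at the copy was 545 bp. The CDS of 17 of them lay as far from the partner's CDS as in the copy, to within 50 bp. Their CDS-to-CDS distance had a median of 710 bp over the 43 genes and 1120 bp over their copies. An annotated 3′ UTR was missing in 2 of the 43 genes and in 7 of their copies. For example, evm.TU.Chr12.1318 (chromosome 12, 23268340 to 23268692) and evm.TU.Chr12.1319 (23268594 to 23273794) overlapped by 99 bp through a 3′ UTR of 473 bp in evm.TU.Chr12.1319. Its copy evm.TU.Chr11.1339 (chromosome 11, 24914185 to 24918282) has no annotated 3′ UTR and a distance of 375 bp from its neighbour, although 374 bp separated the CDS on both chromosomes. Likewise, evm.TU.Chr3.4262 and evm.TU.Chr3.4263 overlapped by 235 bp through a 3′ UTR of 631 bp, and their counterparts evm.TU.Chr4.3838 and evm.TU.Chr4.3839 had none and a distance of 397 bp, with 396 bp between the CDS in both. These examples were chosen after their values were seen. The overlap of 3153 bp on chromosome 3 was not repeated either, since the copy of evm.TU.Chr3.4203, evm.TU.Chr4.3753, had its convergent neighbour 9314 bp away.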

How the data were processed

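The authors deposited 1 gene annotation for the series, with start and end of each gene, mRNA, exon, CDS and UTR segment as positions in bp, the first base being 1, on the assembly of the study. By the methods it was built with Evidence Modeler from Augustus, Genscan, GeneWise and PASA models, with versions that the sources used here leave out. FastQC, HISAT2 and Cufflinks appear in the submitters' processing notes. No genome sequence was used here. Each gene has 1 mRNA. The members, lists and tests were chosen with earlier results of these data known.

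Distance is right start minus left end, and an overlap is left end minus right start plus 1. Copies were genes with at least 5 CDS exons whose ordered internal CDS exon lengths were held by exactly 2 genes, on chromosomes that matched each other best. Differences were taken within each of 11 chromosome pairs, of medians, of means for CDS exons, or of shares for copies. The test was an exact two-sided permutation of their signs, with Benjamini-Hochberg adjustment over 5 tests. Among genes with UTRs on both sides, the adjustment left out the comparison of copies. Chromosome pairs are not biological replicates, so p measures only the spread between them. Distance between facing ends, overlap and 3′ UTR were described without a test, apart from the comparison of copies. The comparison of copies, the fifth test of the adjustment, reads distance too, so its p is not given. Named pairs were those with the 3 longest overlaps of each kind, the longest 3′ UTR, the abutting pair, the pairs next to the limit, and the 3 matched sets of 4 genes with most CDS exons. No pair lay at exactly 200 bp or 1 bp beyond, so the nearest were taken. The pair rule, the length of 3′ UTR on 3′ UTR overlap, the copy matching and the permutation test were tested on simulated gene models. These held no other kind of overlap and no 5′ UTR. The overlap classes, the contacts with CDS or 5′ UTR and the 5′-side distance were not tested in this way. Tables were computed in Python 3.11.15 with pandas 2.3.3 and NumPy 2.4.6, and figures were drawn with Matplotlib 3.10.9.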

Additional observations from a re-analysis of the deposited data

Results flagged for a closer look

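Convergent genes also met on scaffolds that were not placed on a chromosome and that the comparisons above leave out. There, 12 of 546 convergent neighbours lay within 200 bp (2.20%), and 4 of the 12 overlapped. The unplaced scaffolds hold 3240 genes.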

How the results depend on the processing

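No paired analysis was possible because the only file is an annotation, without values for any library, and tissues have 1 library each. Of 114 alternative values, 99 were counted as unchanged, 11 moved, 4 lost their call and 0 reversed. Unchanged meant within the spread over chromosomes, within a factor of 1.5 for pair counts, or on the same side of the threshold. The tally includes the comparison of copies, which reads the distance that chose the pairs. It also includes 5′ UTR length, which had no call to lose. For these measures the tally is no measure of robustness. A limit of 500 bp gave 697 pairs, or 5.40% of convergent neighbours, of which 19.9% overlapped. A limit of 100 bp gave 262 pairs, or 2.03%, of which 53.1% overlapped. With CDS ends in place of gene ends, 77 pairs (0.594%) were found, 5.19% of them overlapping by a median of 844 bp. These were chosen anew and are not all among the 380, of which 61 had CDS ends within 200 bp. Means in place of medians gave 622 bp for the overlap and 587 bp for the 3′ UTR. Among genes with UTRs on both sides, the differences were 0.317 CDS exons, 41.7 bp of CDS and 1734 bp on the 5′ side, and with overlapping pairs alone the last was 2638 bp. These 4 missed the threshold, and the cause was not tested. Overlapping pairs alone differed by 1.24 CDS exons and 249 bp of CDS, which stayed past the threshold. That adjustment counted the comparison of copies. The split of members by odd and even chromosomes was chosen after seeing the data. Leaving out each chromosome pair in turn changed no call. Comparing copies assumes that the annotation is equally complete on both chromosomes, which was not tested.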
